A study of Homo sapiens with 16 samples.

Results

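The BEX family has 5 members in the human genome, BEX1, BEX2, BEX3, BEX4 and BEX5, and all 5 were followed here among 35810 genes summed from the deposited transcript tables. The family was chosen on measured values: BEX5 rose in the late latrunculin B samples, and the other members came with it by name. The size of the BEX5 change and every change of a BEX gene at 24 h are therefore given as a description, without a test. All 5 genes passed the filter on low counts that left 16705 genes to test.

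The cells were pancreatic progenitors made in culture from SA121, a human embryonic stem cell line, carrying the NGN3-GFP reporter genotype in every group. Latrunculin B, a toxin that binds actin monomers and takes actin filaments apart, was given at 0.5 µM from day 19 of the differentiation. There were 6 groups: 3 libraries of control cells at 0 h, 2 of control cells kept for 24 h with DMSO, the solvent of the drug, 3 libraries each of cells under latrunculin B for 3, 6 and 24 h, and 2 of cells under it for 12 h. DMSO is also given in the labels of the 0 h control, although by the design text those cells were taken before any treatment. All libraries came from this line alone, and nothing in the labels says that replicates were separate cultures, so p-values measure the spread between these samples, which may be technical. Libraries held from 23609727 to 33515398 estimated reads. The progenitor marker PDX1 lay between 109.7 and 173 TPM over all libraries and SOX9 between 86.3 and 136 TPM, whereas the pluripotency gene NANOG stayed at or below 0.265 TPM. Of the same pluripotency list LIN28A was high, at 176 ± 7.03 TPM (SD, n = 3) in control 0 h and 93.2 ± 1.095 TPM (SD, n = 3) at 6 h. TPM is a level scaled for transcript length and library total. The 12 h libraries differed most from each other, with a correlation of log2 CPM across genes of 0.967 against 0.98 to 0.986 in other replicate pairs.

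BEX stands for brain expressed X-linked. The family is found in placental mammals and encodes short, acidic, largely unstructured proteins that act as adaptors between other proteins, and its members are best known from neurons and neuroendocrine cells. BEX1 and BEX3 bind the p75 neurotrophin receptor; BEX3, also called NADE, was named for a part in cell death downstream of that receptor. BEX2 has been found with the LIM-domain protein LMO2 in complexes that act on transcription, and BEX4 with microtubules. Little is known of what BEX5 does. The TCEAL genes, relatives named for similarity to an elongation factor, lie among the BEX genes on the long arm of the X chromosome.

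On GRCh38, BEX5 (ENSG00000184515.11) spans X:102153708-102155977 on the minus strand and stands apart from the other 4 genes, 906673 bases before BEX1. BEX1 (ENSG00000133169.6) spans X:103062651-103064171 on the minus strand, BEX4 (ENSG00000102409.10) X:103215108-103217246 on the plus strand, BEX2 (ENSG00000133134.12) X:103309346-103311007 on the minus strand and BEX3 (ENSG00000166681.14) X:103376395-103378164 on the plus strand. The coding sequences hold 125 codons in BEX1, 160 in BEX2, 111 in BEX3, 120 in BEX4 and 111 in BEX5. Identity was counted over all columns of each coding alignment, gaps included, which lowers it for pairs with BEX2, the longest sequence. Of the 375 coding bases of BEX1, 354 were identical in BEX2, and of the 333 of BEX3, 251 in BEX5. Over all columns, BEX1 and BEX2 were 73.8% identical and BEX3 and BEX5 72.8%, and the other pairs lay between 47.8% and 63.3%. BEX5 thus had its nearest coding relative in BEX3, a gene that moved the other way in these libraries.

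Reads of near-identical genes can be shared out wrongly, so runs of 31 bases common to transcripts of different genes were counted. BEX5 and BEX3 had none in common with any other gene. BEX1 shared 92 of its 765 runs with BEX2, or 12%, and 12 with ARMCX4. BEX2 shared 23 of 1185 with BEX4. BEX1 and BEX2 are therefore the less certain levels, and a fit with their reads summed is given where it matters. Nearly all BEX5 reads, 95.4% to 100% in each library, were assigned to the transcript BEX5-201.

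The sequences just upstream of the annotated starts show which members have related promoters, and are given here from RefSeq (GRCh38.p14), cut so that they hold no transcribed base. All 5 genes matched an entry. Capitals mark bases identical between BEX2 and BEX4 in their best local alignment; BEX5, with no comparable stretch in any member, has none. The windows are X:103311008-103311240 (minus strand, 233 bases) for BEX2, X:103214842-103215091 (plus strand) for BEX4 and X:102155978-102156227 (minus strand) for BEX5, each read 5′ to 3′ towards the gene.

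BEX2: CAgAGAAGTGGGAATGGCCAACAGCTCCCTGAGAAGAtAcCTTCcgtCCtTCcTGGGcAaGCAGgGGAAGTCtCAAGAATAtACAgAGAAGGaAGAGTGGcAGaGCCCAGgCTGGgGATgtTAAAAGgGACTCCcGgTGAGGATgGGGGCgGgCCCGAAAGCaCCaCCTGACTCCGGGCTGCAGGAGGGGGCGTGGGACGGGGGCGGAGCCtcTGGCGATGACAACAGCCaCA

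BEX4: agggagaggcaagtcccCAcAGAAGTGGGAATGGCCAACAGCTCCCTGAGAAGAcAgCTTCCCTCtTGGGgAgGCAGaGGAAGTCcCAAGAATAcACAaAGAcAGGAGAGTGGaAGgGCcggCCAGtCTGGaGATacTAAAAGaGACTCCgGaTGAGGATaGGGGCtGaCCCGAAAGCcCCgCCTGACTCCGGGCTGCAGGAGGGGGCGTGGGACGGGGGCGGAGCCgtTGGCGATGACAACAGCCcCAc

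BEX5: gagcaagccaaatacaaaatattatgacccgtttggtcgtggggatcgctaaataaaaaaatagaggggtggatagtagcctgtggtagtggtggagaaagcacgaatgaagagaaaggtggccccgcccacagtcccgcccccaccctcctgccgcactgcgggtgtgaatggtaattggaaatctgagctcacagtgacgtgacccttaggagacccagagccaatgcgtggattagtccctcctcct

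The BEX2 and BEX4 windows aligned over 237 columns with 201 identical bases (84.8%). BEX1 and BEX3 shared a stretch of 44 columns with 41 identical bases (93.2%). Alignments of BEX5 with the others reached at most 19 columns. Of 5 motifs searched on both strands, GGAATG, the core letters bound by TEAD factors, occurred in the BEX2 and BEX4 windows, inside the shared block, and in no other member; it is in 11.9% of the 27305 gene promoters of 250 bases. The letters CANNTG, the E-box of basic helix-loop-helix factors such as NEUROG3, occurred in BEX1 (2 matches), BEX2 (1) and BEX3 (1) but not in BEX4 or BEX5, against 62.2% of promoters. Neither GTAAACA, a forkhead motif (2.98% of promoters), nor TATAAA (11.1%) was in any BEX window. CATCTG, a form of the E-box and so overlapping with CANNTG, was also absent, against 12.2% of promoters. These are matches of letters in short windows and nothing more.

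Before the drug the family was strongly expressed, with a wide spread between members. In control 0 h, BEX1 reached 1386 ± 28.4 TPM (SD, n = 3), rank 107 of 35810 genes, and BEX3 555 ± 7.31 TPM, rank 214. BEX4 stood at 122 ± 5.27 TPM and BEX2 at 69.8 ± 7.17 TPM. BEX5 was the least abundant member at 11.1 ± 1.39 TPM, rank 8708. No neighbours in this order overlapped, and the same order held in control 24 h, where BEX5 was at 10.8 ± 0.667 TPM (SD, n = 2).

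BEX5 is the member that rose. Its level, in CPM (counts scaled to library size), was 3.35, 3.95 and 4.28 in control 0 h and 3.90 and 3.54 in control 24 h, from 84 to 118 reads per library. After 3 h of latrunculin B it read 8.12, 6.89 and 8.69 CPM. After 6 h the libraries held 22.9, 25.1 and 28.3 CPM. All drug libraries lay above all 5 controls, and the 6 h libraries all lay above the 3 h libraries. The rise was thus under way at 3 h and largely complete at 6 h, earlier than the late rise for which the gene was picked.

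At 12 h the pair of BEX5 values was 41.0 and 23.8 CPM, the widest gap of any group, and at 24 h the values were 24.0, 26.9 and 25.7 CPM, inside the range of the 6 h to 12 h libraries. The fitted log2 fold change of BEX5 against control 0 h was 1.03 after 3 h (SE 0.185), 2.72 after 6 h (SE 0.182) and 3.06 after 12 h (SE 0.193). Against control 24 h it was 2.78 after 24 h (SE 0.21). These are folds of 2.05, 6.58, 8.36 and 6.87. Without the second 12 h library the value at 12 h was 3.405, and without the first 2.62. By size of rise BEX5 ranked 499 of 16705 genes at 3 h, 76 at 6 h, 90 at 12 h and 138 at 24 h. From the mean of one drug group to the next, BEX5 changed 3.22-fold between 3 h and 6 h, 1.27-fold between 6 h and 12 h, and 0.789-fold between 12 h and 24 h. Between the controls it changed by -0.06 (SE 0.217).

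**Figure D1:**
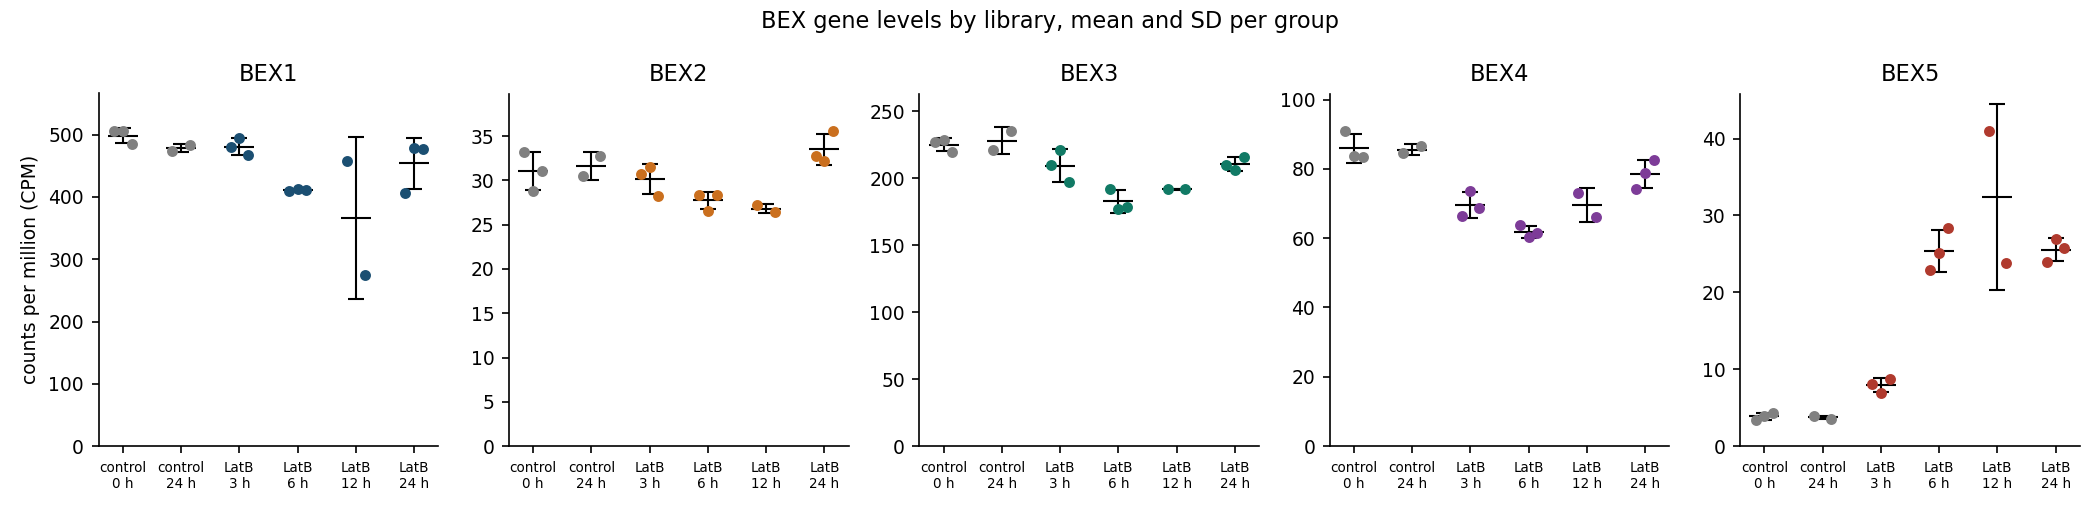
CPM of each BEX gene (vertical axis from 0, own scale per gene) in the 16 libraries by group; dots are libraries, grey for controls, and black bars are the group mean and SD. BEX5 climbs from 3.35 to 4.28 CPM in control 0 h to 22.9 to 28.3 CPM at 6 h, while BEX1 to BEX4 have their lowest means at 6 or 12 h and the 12 h libraries of BEX1 and BEX5 lie far apart.

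BEX4, the member linked to microtubules, was the one called lower already at 3 h. It was at 90.9, 83.7 and 83.4 CPM in control 0 h, at 66.4, 73.7 and 68.7 CPM after 3 h, and at 63.8, 60.4 and 61.6 CPM after 6 h. At 12 h it stood at 73.1 and 66.2 CPM. Every library of these drug groups lay below every control 0 h library. BEX4 fell by 0.30 on the log2 scale at 3 h (SE 0.0568, edgeR quasi-likelihood test, adjusted p 0.0011), by 0.47 at 6 h (SE 0.0571, adjusted p 2.39e-05) and by 0.31 at 12 h (SE 0.0641, adjusted p 0.00241). At 24 h, BEX4 read 74.2, 78.8 and 82.5 CPM against 84.5 and 86.7 CPM in control 24 h, a log2 difference of -0.12 (SE 0.0629) that is described only. The change at 12 h was -0.0003 (SE 0.0637) from that at 3 h (edgeR adjusted p 0.999), with a mean of 69.6 CPM at both times.

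BEX3, the p75 receptor partner, was at 227, 229 and 219.8 CPM in control 0 h and at 210.0, 221 and 197 CPM after 3 h, where the groups overlapped (log2 fold change -0.10, SE 0.0487, edgeR adjusted p 0.125). After 6 h it held 192, 177 and 179 CPM, and after 12 h 192 in both libraries. BEX3 fell by 0.30 at 6 h (SE 0.0488, edgeR adjusted p 0.000261) and by 0.23 at 12 h (SE 0.0548, adjusted p 0.00541). All 6 h and 12 h libraries lay below all of control 0 h. At 24 h the values were 209.9, 206 and 216 CPM against 221 and 235 CPM in control 24 h, with a log2 difference of -0.12 (SE 0.0542).

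BEX1, the most abundant member and the other p75 receptor partner, was at 505, 506 and 485 CPM in control 0 h and at 480.0, 494 and 468 CPM after 3 h. After 6 h the 3 libraries lay within 410.3 to 412 CPM, below every control. Its log2 fold change was -0.28 at 6 h (SE 0.128) and did not pass the test with all groups in the fit (edgeR adjusted p 0.1). With only control 0 h and 6 h in the fit it was -0.28 (SE 0.0353, adjusted p 0.000259), a fit that leaves out the other 4 groups. At 12 h the libraries read 458 and 275 CPM. BEX1 fell by 0.45 at 12 h (SE 0.145, edgeR adjusted p 0.0285), and this rests on the second library: without it the value was -0.12 (adjusted p 0.252). The call was also lost without the first (adjusted p 0.0587) or the second (adjusted p 0.0561) library of control 0 h, at nearly the same fold change. At 24 h the level was 406, 478 and 477 CPM, against 474 and 483 CPM in control 24 h (log2 difference -0.08, SE 0.143).

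BEX2, the LMO2 partner, moved by small amounts. It was at 33.2, 28.9 and 31.1 CPM in control 0 h, 30.8, 31.5 and 28.2 CPM after 3 h, 28.3, 26.6 and 28.3 CPM after 6 h and 27.2 and 26.5 CPM after 12 h. The 6 h and 12 h libraries lay below those of control 0 h. The log2 fold change was -0.16 at 6 h (SE 0.0648, edgeR adjusted p 0.0595), which did not pass the test. At 12 h it was -0.21 (SE 0.0729, edgeR adjusted p 0.0368). The call at 12 h is close to the threshold and was lost in 10 of 15 alternatives, DESeq2 (adjusted p 0.0572) among them. After 24 h BEX2 was at 32.7, 32.2 and 35.5 CPM against 30.5 and 32.7 CPM, a log2 difference of 0.08 (SE 0.0714).

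Of the 4 members tested, 1 was called lower at 3 h, where 14.7% of all genes tested were called lower and 16.8% higher. At 6 h, 2 were called lower, against 20.4% of all genes lower and 22.9% higher, and at 12 h all 4 were called lower, against 16.8% lower and 19.1% higher. None was called higher at these times. At 12 h DESeq2 called 3 of the 4. Of 15 alternatives at 12 h, 5 lost the call of BEX1 and 10 that of BEX2, while BEX3 and BEX4 kept theirs in all. Between control 24 h and control 0 h, 0 of 4 were called by edgeR, 0 had an unadjusted p under 0.05 and 0 were called by DESeq2, with 0.251% of all genes called. The log2 differences ran from -0.06 to 0.03. Even so, BEX1 did not overlap between these controls, at 474.5 to 483.4 CPM against 485.2 to 505.5 CPM (edgeR adjusted p 0.976). The share of all genes whose groups did not overlap was not counted, so lack of overlap is a description only. No control of 3, 6 or 12 h was used here, so drug and culture time cannot be told apart at those times. The 24 h control also differs from those groups in culture time. Against it the changes at 6 h kept their direction, BEX1 at 3 h changed sign (0.00515) and BEX1 at 12 h was not called. The test of 12 h against 3 h of latrunculin B, in which control 0 h cancels, called 1 of 4 lower (20.3% of all genes were called lower): BEX1, with -0.39 (SE 0.145, edgeR adjusted p 0.0446). Without the second 12 h library that value was -0.07 (adjusted p 0.53), and leaving out any one library of 3 h also lost the call (adjusted p 0.0689 to 0.0968). BEX2 (-0.17, adjusted p 0.0772) and BEX3 (-0.13, adjusted p 0.0827) did not pass it. Across all libraries the highest BEX5 level was 12.2 times the lowest, while the same ratio was 1.84 for BEX1, 1.51 for BEX4, 1.34 for BEX2 and 1.33 for BEX3.

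**Figure D2:**
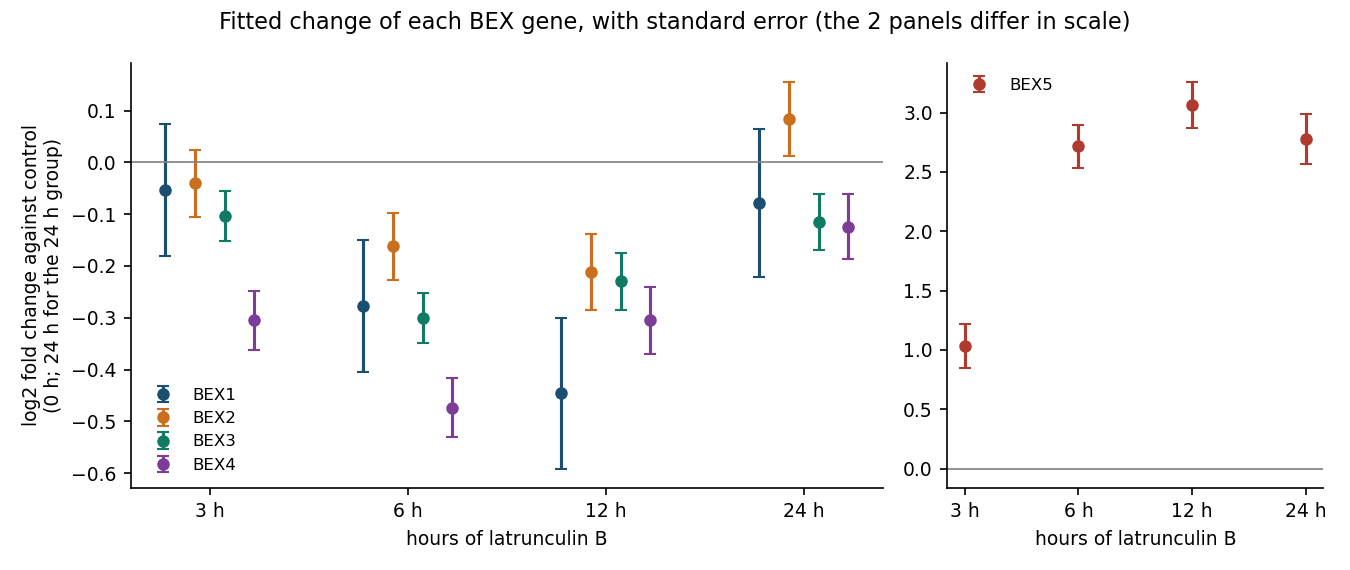
Fitted log2 fold change (vertical axis) of BEX1 to BEX4 on the left and BEX5 on the right, after 3, 6 and 12 h of latrunculin B against control 0 h and after 24 h against control 24 h; bars are standard errors, and the panels differ in scale. The 4 genes on the left lie below 0 at 3, 6 and 12 h, with BEX4 lowest at 6 h (-0.47), whereas BEX5 goes from 1.03 to 3.06.

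The order of the members changed with the rise of BEX5. At 3 h BEX5 was still last, at 21.9 ± 2.56 TPM (SD, n = 3) against 64.5 ± 5.20 TPM for BEX2. At 6 h it reached 68.4 ± 6.14 TPM and stood above BEX2 at 59.4 ± 1.87 TPM, with no overlap between the 3 libraries of each. At 12 h it stood at 113 and 73.5 TPM, around BEX4 at 99.2 and 103 TPM, and the ranges of both overlapped. At 24 h BEX5 (71.0, 78.9 and 75.1 TPM) and BEX2 (75.7 ± 3.56 TPM) did not differ beyond their spread. BEX1, BEX3 and BEX4 kept their places in each group apart from that overlap. By rank among all 35810 genes, BEX5 went from 8708 in control 0 h to 2088 at 6 h and 1913 at 24 h.

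The summed TPM of the 5 genes was carried by BEX1 and BEX3. It was 2145 ± 38.5 TPM (SD, n = 3) in control 0 h, 1946 ± 82.5 at 3 h, 1700 ± 26.8 at 6 h and 2053 ± 99.5 at 24 h. At 6 h every library, from 1677 to 1730.0 TPM, was below the control range of 2121 to 2189 TPM. TPM lacks the scaling between libraries used for CPM, and its falls at 6 h were larger. BEX1 went from a mean of 1386 to 1069 TPM but from 498.7 to 411.5 CPM, a fitted fold of 0.825. BEX5 made up 0.44% to 0.585% of the sum in control 0 h, 3.61% to 4.45% at 6 h and 3.55% to 3.75% at 24 h. The 12 h libraries summed to 1922 and 1559 TPM.

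**Figure D3:**
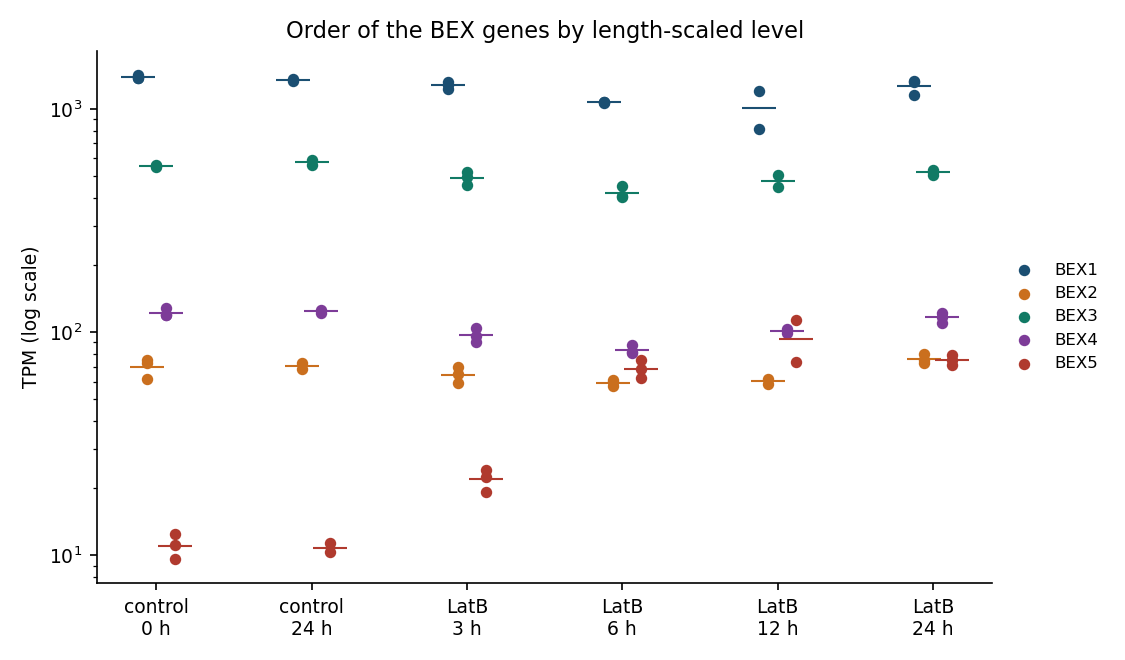
TPM of the 5 BEX genes on a logarithmic axis by group; dots are libraries and short horizontal marks are group means. BEX5 starts below the rest at 9.63 to 12.4 TPM in control 0 h, passes BEX2 at 6 h and overlaps it at 24 h, while BEX1 and BEX3 stay on top.

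Profiles over the 16 libraries were compared as log2 CPM minus each gene's own mean, by the root-mean-square difference. Among the members, BEX2 and BEX3 were closest (0.091 on the log2 scale), followed by BEX3 and BEX4 (0.0929), and BEX5 lay between 1.32 and 1.39 from each of the others. Of 12589 genes with a symbol and a mean log2 CPM of at least 1, those most like BEX5 included DLL4, a Notch ligand (0.284), and SSTR1, a somatostatin receptor (0.36). DLL4 (chromosome 15, 40929340 to 40939073) went from a mean of 0.989 TPM in control 0 h to 7.05 TPM at 6 h and 6.46 TPM at 24 h. SSTR1 went from 4.02 to 17.3 and 16.4 TPM. Like BEX5, both were higher at 6 h than at 3 h and had no further rise of that size after it. BEX5 was more abundant than either of them in these groups.

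The closest profiles to the other members were those of genes that dipped with them. DHRS4, RHBDF2 and BSPRY were nearest to BEX1 (0.0959 to 0.101), ETNK2, UBAC2 and FAM98B to BEX2 (0.0643 to 0.0657), IFT57, STAMBP and SNRPN to BEX3 (0.0604 to 0.0613) and METTL5, SUCLG1 and SH3BP4 to BEX4 (0.0716 to 0.0724). The likeness to BEX1 is carried largely by the second 12 h library, where BEX1, BSPRY, DHRS4 and RHBDF2 lay at -0.70, -0.70, -0.63 and -0.53 from their means, against -0.0104 to 0.0416 in the first. METTL5 had a log2 fold change of -0.30 at 3 h, -0.61 at 6 h and -0.38 at 12 h.

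**Figure D4:**
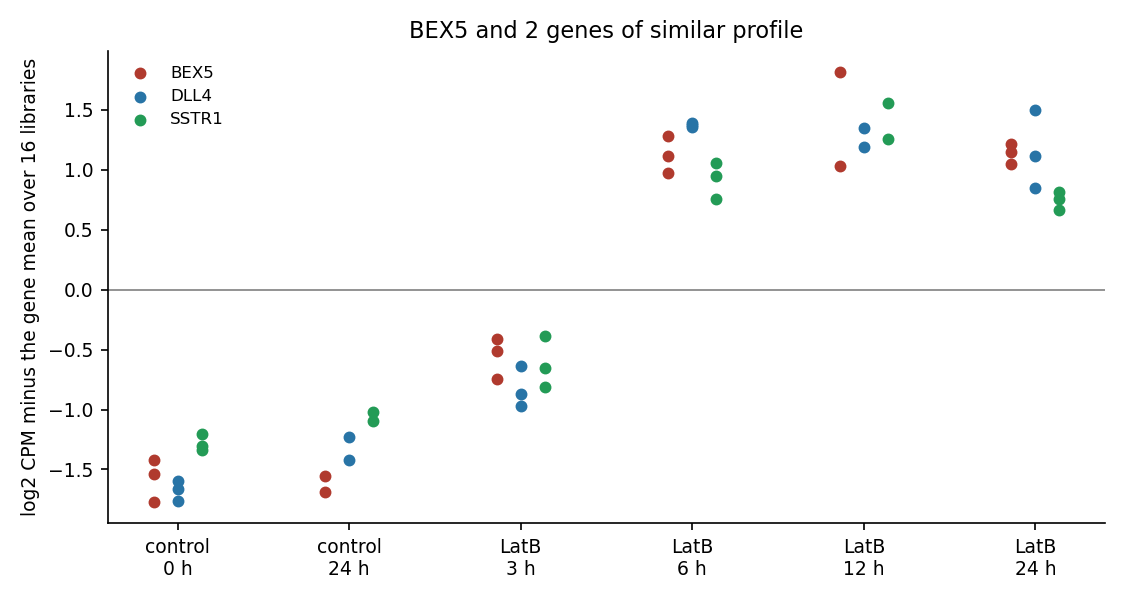
Log2 CPM minus the gene's mean over the 16 libraries (vertical axis) for BEX5, DLL4 and SSTR1, by group; each dot is a library. All 3 genes lie below 0 in the controls and at 3 h and above 0 at 6, 12 and 24 h.

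The X-chromosome neighbours of the family were examined next, as 99 genes within 1000000 bases of the outer BEX genes, of which 45 passed the filter. At 6 h 6 were called higher and 12 lower by edgeR, with a median log2 fold change of -0.06 (all genes, -0.01), and at 24 h 13 were called higher and 5 lower, with a median of 0.22 (all genes, 0.01). The shares of all genes called were 22.9% higher and 20.4% lower at 6 h, and 21.9% higher and 18.8% lower at 24 h. The nearest tested neighbour of BEX5 is TCEAL2, 13282 bases away. TCEAL2 rose by 1.23 at 6 h (SE 0.407, edgeR adjusted p 0.026) and by 2.55 at 24 h (SE 0.479, adjusted p 0.000943), from 0.891 ± 0.292 TPM (SD, n = 3) in control 0 h and 0.609 ± 0.0767 (SD, n = 2) in control 24 h to 1.91 ± 0.268 and 3.50 ± 0.814 TPM. It did not pass the test at 3 h, with a value of 0.33. Its level stayed far below that of BEX5. The largest fall among called neighbours at 6 h was in NXF2 (-7.92, SE 2.33), which has a near-identical copy, NXF2B, and is uncertain. ZMAT1 fell by 1.04 and TCP11X2, also with a close copy, by 1.01. At 24 h the largest changes among called neighbours after TCEAL2 were in ZCCHC18 (-1.60), TCEAL5 (1.59) and H2BW3P (-0.94).

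**Figure D5:**
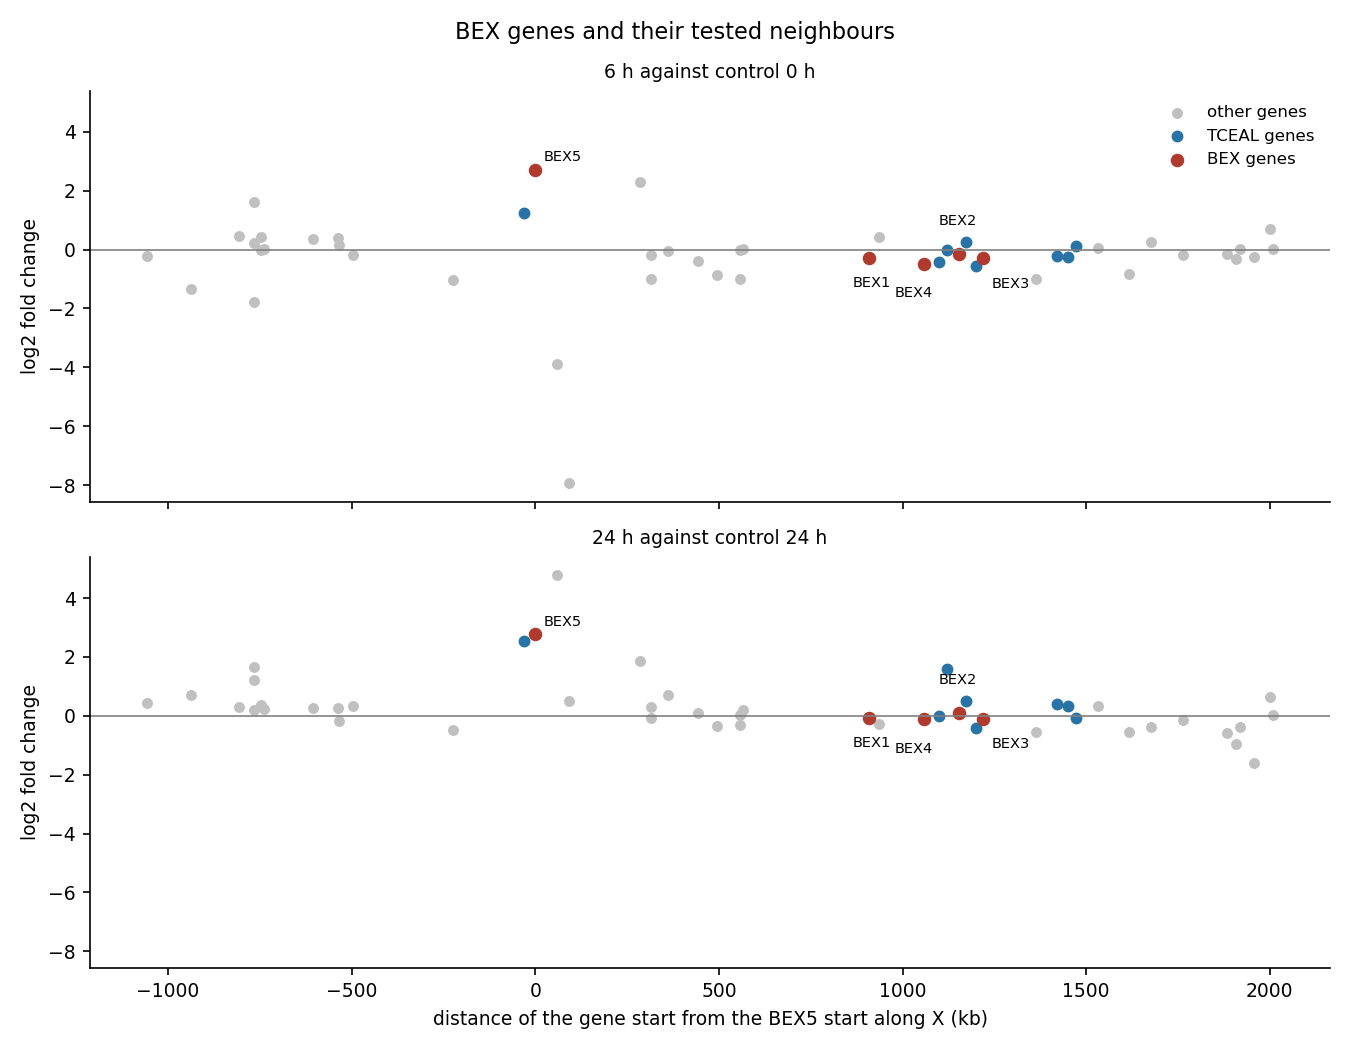
Log2 fold change (vertical axis) of BEX genes (red), TCEAL genes (blue) and other tested neighbours (grey) against the distance of each gene's start from that of BEX5 in kb, at 6 h (top) and 24 h (bottom). BEX5 stands at 2.72 and 2.78 with TCEAL2 beside it at 1.23 and 2.55, and the other 4 BEX genes lie near 0 about 908 to 1220 kb away; the lowest grey dot at 6 h is NXF2.

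The TCEAL relatives, 9 listed and 8 tested, were split. At 6 h 1 was called higher and 4 lower (median -0.12), against 22.9% of all genes higher and 20.4% lower: beside TCEAL2, TCEAL9 fell by 0.54 (edgeR adjusted p 7.2e-05), TCEAL8 by 0.40 and TCEAL3 by 0.25. At 24 h 4 were called higher and 1 lower (median 0.37), against 21.9% and 18.8% of all genes, among them TCEAL4, which rose by 0.39, and TCEAL9, which fell by 0.43. TCEAL9 was the most abundant of them, at 422 ± 16.2 TPM in control 0 h and 288 ± 5.72 TPM at 6 h (SD, n = 3 each).

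Genes of the p75 neurotrophin receptor pathway, which holds the partners of BEX1 and BEX3, moved in both directions. The receptor itself, NGFR, was at 0.633 ± 0.128 TPM in control 0 h and at 0.305 and 0.403 TPM in control 24 h. It lay between 0.353 and 0.709 TPM in all latrunculin B libraries of 6 h and 24 h. Of 18 tested members of 20 listed, 6 were called higher and 1 lower at 6 h, with a median of 0.18, and 3 higher and 3 lower at 24 h, with a median of 0.03. The shares over all genes were 22.9% higher and 20.4% lower at 6 h and 21.9% and 18.8% at 24 h, so the counts at 24 h were near or below the background. At 6 h RTN4R, the Nogo receptor, rose by 1.11 (SE 0.0885, edgeR adjusted p 7.72e-07), the neurotrophin receptor NTRK2 rose by 0.65 and the kinase gene IRAK1 by 0.53, and LINGO1, a partner of the Nogo receptor, fell by 0.36. At 24 h NTRK2 fell by 1.71, from 12.8 ± 0.529 TPM (SD, n = 2) in control 24 h to 4.02 ± 1.67 TPM (SD, n = 3). At 12 h NGFR was called, with a rise of 1.42 (SE 0.466, edgeR adjusted p 0.0297) and levels of 0.518 and 2.89 TPM in its libraries.

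Partners of LMO2, with which BEX2 is known to associate, gave 4 called higher and 2 lower of 11 tested at 6 h (median 0.04) and 4 higher and 2 lower at 24 h (median 0.29). Over all genes 22.9% were called higher and 20.4% lower at 6 h, and 21.9% and 18.8% at 24 h, and the counts of lower calls were near those shares. LMO2 itself fell by 1.31 at 6 h (SE 0.338, edgeR adjusted p 0.00681), from 1.01 ± 0.397 TPM to 0.35 ± 0.126 TPM (SD, n = 3 each). SSBP2, a cofactor of the complex, fell by 0.85, TCF3 rose by 0.54, and NHLH1 rose by 2.0 at levels below 0.5 TPM.

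Markers of cell types were read beside the BEX values. Of 12 endocrine commitment genes, 9 were called higher and 0 lower at 6 h (median 1.41) and 10 higher and 0 lower at 24 h (median 2.65), where the 2 others did not pass. Over all genes 22.9% were called higher at 6 h and 21.9% at 24 h. Between control 24 h and control 0 h the same list had a median of 0.71, with 0 of 12 called by edgeR and 5 with an unadjusted p under 0.05. At 6 h NKX2-2 rose by 3.09, DLL4 by 3.09, INSM1 by 2.56 and NEUROG3 by 2.21. These folds start from low means in control 0 h, 0.214, 0.989, 0.427 and 0.701 TPM in that order. At 6 h the means were 1.69, 7.05, 2.28 and 2.91 TPM, and at 24 h of latrunculin B 11.2, 6.46, 22.5 and 38.0 TPM. In control 24 h, without the drug, they were 0.742, 1.26, 1.2 and 1.96 TPM. The study, in its own differential expression analysis, reported no increase of endocrine markers at 6 h of latrunculin B. The folds at 6 h given here are against control 0 h and so hold any change with culture time. The summed TPM of this list was 107.7 to 122.6 in control 0 h, 167.6 to 181.9 at 3 h, 199.3 to 202.9 at 6 h, 204.5 to 239.2 at 12 h and 267.9 to 346.8 at 24 h. The sum was higher at 24 h than at 12 h, but not every member of the list was. DLL4 went from a mean of 7.05 to 6.46 TPM and SOX4 from 148.1 to 136.8 TPM. BEX5 went from 93.2 to 75 TPM, with 12 h libraries that lay far apart. A relation of BEX5 to this list was not tested. Most of the sum up to 6 h was SOX4, with means of 79.9 TPM in control 0 h, 140.9 at 3 h and 146.3 at 6 h. NEUROG3 had means of 0.701, 0.877 and 2.91 TPM in the same groups. Markers of hormone cells had 4 of 12 called higher at 6 h, among them PCSK2, which rose by 2.50, and PCSK1, by 2.26. PCSK2 and PCSK1 had means of 0.320 and 0.351 TPM in control 0 h and 1.43 and 1.48 TPM at 6 h. The median of the hormone cell list was 0.88 at 6 h and 0.99 between control 24 h and control 0 h. Between the controls 0 of 12 were called by edgeR and 5 had an unadjusted p under 0.05, so medians of this size were also seen in culture without the drug. The part of a changing make-up of cells in the BEX5 values was not tested, and in bulk RNA fewer cells of a type and less RNA per cell cannot be told apart.

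Neuronal markers, of interest because BEX genes are known from neurons, had 4 of 8 tested called higher and 0 lower at 6 h (median 0.76), NEFL, SNAP25, TUBB3 and DCX, which rose by 1.06 to 1.22. At 24 h 3 were called higher and 2 lower, where 21.9% of all genes were called higher and 18.8% lower. SNAP25 was among those called lower, at 9.42 ± 1.79 TPM (SD, n = 3) against 17.4 ± 1.52 TPM (SD, n = 2) in control 24 h. The summed TPM of the neuronal list was 296.3 to 308.6 in control 0 h and 508.9 to 575.7 at 6 h, mostly from TUBB3. Levels within the list differed widely. ELAVL3 was between 0 and 0.1 TPM in all libraries, whereas NEFM had means of 42.9 TPM in control 0 h and 55.8 TPM at 6 h. Against the 22.9% of all genes called higher and 20.4% lower at 6 h, of the progenitor list 2 of 9 were called higher and 1 lower at 6 h, of the pluripotency list 0 higher and 1 lower of 6, of the mesenchyme list 0 higher and 1 lower of 10, of the liver list 2 higher of 7 and of the duct list 1 higher and 1 lower of 6. None of 4 tested acinar or 4 tested endothelial markers was called at 6 h by edgeR, and 0 had an unadjusted p under 0.05. The second 12 h library, the one with the low BEX1 value, had a summed mesenchyme level of 912.7 TPM against 238.6 in the first, and a summed liver level of 4392 against 2902 TPM; their part in its BEX values was not tested.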

How the data were processed

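RNA was sequenced from 16 libraries of pancreatic progenitors (poly(A) selection, NEBNext Ultra II). The authors deposited estimated counts and TPM per transcript for every library; per the labels it was made with Salmon 1.3.0 on hg38, whereas the study's methods name STAR gene counts, so the upstream settings are uncertain. The 16 per-sample columns of a further deposited table, and its log2 fold changes and p-values by the authors, were not used. Transcripts were joined to genes through GENCODE release 44 (2.92% to 3.17% of reads unmatched), and estimated counts were summed per gene and rounded. edgeR 4.0.16 (quasi-likelihood, two-sided; R 4.3.3) was fitted to all groups with TMM scaling and filterByExpr, with Benjamini-Hochberg adjustment over 16705 genes and a threshold of 0.05. CPM uses TMM-scaled library sizes. SE is the log2 fold change divided by the square root of F. Totals of 23609727 to 33515398 reads set the precision; BEX5 rests on 84 to 118 reads per control library. The members and lists were chosen with earlier results of these data known. Named genes were all BEX genes, up to 4 called members of each list and X-chromosome neighbourhood with the largest change at the time described (the levels of marker genes and of NGFR and ELAVL3 were added after values were seen), and the 3 genes of closest profile to each member, of which 1 is not reported here. Scripts were tested on simulated counts. Alternatives were DESeq2 1.42.0, RLE factors, no scaling, no filter, the replicate block, fewer groups in the fit, log2(TPM + 1) and log2(TPM + 0.1) with limma 3.58.1, BEX1 and BEX2 summed, the other control and leaving out each library. Sequences were compared with Biopython 1.88.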

Additional observations from a re-analysis of the deposited data

Results flagged for a closer look

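The effect on BEX1 differed between 12 h and 3 h of latrunculin B by -0.39 on the log2 scale (edgeR adjusted p 0.0446). The BEX1 level was lower in both 12 h libraries (458 and 275 CPM) than in all 3 libraries of 3 h (467.6 to 494.5 CPM), in the first of them by little. The size of the difference comes from the second 12 h library, and without that library the difference was -0.07. Groups of 2 or 3 libraries are too small for the test of a lone library used for larger groups.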

How the results depend on the processing

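BEX4 at 3, 6 and 12 h and BEX3 at 6 and 12 h kept their direction and their call in every alternative. DESeq2 lost BEX2 at 12 h (-0.21), and so did no filter (-0.21), the replicate block (-0.21), only the compared groups (-0.23), log2(TPM + 1) (-0.20) and log2(TPM + 0.1) (-0.20). BEX1 at 12 h was lost with only the compared groups (-0.46) and against control 24 h (-0.39). BEX1 at 12 h against 3 h was lost with no scaling (-0.31), the replicate block (-0.40) and only the compared groups (-0.37). Calls were gained with no scaling by BEX3 at 3 h (-0.18), BEX1 at 6 h (-0.37) and BEX2 at 6 h (-0.25). BEX1 at 6 h also gained one with only the compared groups (-0.28) and on log2(TPM + 1) (-0.38) and log2(TPM + 0.1) (-0.38), BEX2 at 6 h on those scales (-0.22 and -0.23) and against control 24 h (-0.19), and the sum of BEX1 and BEX2 at 12 h against 3 h (-0.38). TMM factors were 0.947 to 0.962 in the 3 h and 6 h libraries and 1.01 to 1.02 in control 0 h. Neither the fit with no scaling nor the TPM scales use them. The cause was not tested.

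Values near 0 changed sign. BEX4 at 12 h against 3 h was 0.0115 under DESeq2, 0.0119 with RLE factors, 0.0933 with no scaling, 0.00788 with no filter, 0.000131 with the replicate block, 0.0226 with only the compared groups, and 0.0622 and 0.0628 on the TPM scales. BEX4 between the controls was 0.0121 with no scaling, 0.00957 with no filter, and 0.0187 and 0.0189 on the TPM scales. The sum of BEX1 and BEX2 was -0.0672 at 24 h and -0.0531 between the controls, and BEX1 at 3 h against control 24 h was 0.00515.

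Leaving out a library gave, for BEX1, -0.86 to -0.12 at 12 h and -0.81 to -0.0714 at 12 h against 3 h; for BEX2, -0.11 to 0.0104 at 3 h, -0.23 to -0.11 at 6 h, -0.28 to -0.16 at 12 h, -0.0321 to 0.0779 between the controls and -0.21 to -0.13 at 12 h against 3 h; for BEX3, -0.17 to -0.0807 at 3 h, -0.0255 to 0.0624 between the controls and -0.17 to -0.0807 at 12 h against 3 h; and for BEX4, -0.0339 to 0.0348 between the controls and -0.0744 to 0.0693 at 12 h against 3 h. BEX5 at 12 h ran from 2.62 to 3.405. At 24 h, with no test, BEX1 ran from -0.12 to -0.0035, BEX2 from 0.0337 to 0.14, BEX3 from -0.16 to -0.0706 and BEX4 from -0.16 to -0.0848. Calls were gained by BEX3 at 3 h without the second 3 h library (edgeR adjusted p 0.0307), BEX2 at 6 h without the second control 0 h library (0.0189), and BEX2 (0.0436) and BEX3 (0.0324) at 12 h against 3 h without the third 3 h library.

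Genes called between the controls numbered 42, against 246 (DESeq2), 8 (RLE), 7 (no scaling), 91 (no filter), 6 (replicate block), 218 (only the compared groups), 2 and 7 (TPM scales) and 2 to 9 without a library. At 12 h they were 5988, against 2828 with only the compared groups and 3981 on log2(TPM + 0.1), at 12 h against 3 h 6753 against 3523 with only the compared groups, and at 24 h 6809, or 4034 to 6424 without a library. Replicate numbers did not pair the samples (correlations of deviations from -0.0588 to 0.0797), so the block has no basis in the design. Low BEX5 counts in the controls limit its folds.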
